A study of Mus musculus with 10 samples.

Results

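The BCL2 family genes that set the balance between survival and death were followed in germinal center B cells with and without the transcription factor ZBTB38. The set held 10 genes of the 22380 quantified, chosen by their known role and matched by gene symbol: 4 pro-survival genes (Bcl2, Bcl2l1, Mcl1 and Bcl2a1b) and 6 pro-death genes (Bcl2l11, Bax, Bak1, Bbc3, Pmaip1 and Bid). All 10 had counts in each of the 10 libraries and passed the filter on low counts in all 4 comparisons. Mice of strain C57Bl6/N were immunized with NP-OVA in Alhydrogel, and NP-binding GL7+IgD- B cells were sorted for RNA-seq 2 weeks later. ZBTB38 WT mice were Zbtb38fl/fl and carried no Cre (n = 2), ZBTB38 HET mice were Zbtb38fl/+ x Vav-Cre (n = 2), and ZBTB38 KO mice were Zbtb38fl/fl x Vav-Cre (n = 6). Every mouse thus carried at least 1 floxed allele, all from a single founder made in C57Bl6/J zygotes and backcrossed to C57Bl6/N. Vav-Cre is active throughout the hematopoietic system, so cells other than B cells lost Zbtb38 as well. The HET and KO mice carried Cre and the WT mice did not, so in WT over KO the loss of Zbtb38 and the presence of Cre cannot be told apart. In WT over HET the loss of 1 Zbtb38 allele and the presence of Cre cannot be told apart either. Of the pooled WT and HET group, only the HET mice carried Cre. The labels give the mice no age.

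BCL2 proteins govern the outer membrane of the mitochondrion. Pro-survival members bind and hold back BAX and BAK, the effectors that open this membrane and release cytochrome c, while BH3-only proteins such as BIM, PUMA, NOXA and BID occupy the pro-survival members or activate the effectors. Germinal center B cells are known for dying readily unless they are selected, for low BCL2, and for a need for MCL1.

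The BH3 helix is the element through which these proteins bind each other, and its core is a leucine followed 4 codons later by glycine and aspartate. The coding sequence of each gene's most abundant transcript was searched in frame, on the coding strand, for a leucine codon (CTN, TTA or TTG), any 3 codons, a glycine codon (GGN) and GAC or GAT. Of 9 genes searched, 7 held the pattern, each in 1 place, and 2143 of 16643 coding sequences of genes with a count held it as well (12.9%). Coding sequences of these genes that do not start with ATG were counted as lacking it, so this share may be too low. Bcl2a1b and Bbc3 held no match, and Pmaip1 was not searched. The 27 bases from the leucine codon are shown for 4 genes, because the level of the Bcl2l11 stretch turned out to differ between libraries and the other 3 let it be compared with a partner and an effector. Capitals mark the leucine codon and the glycine and aspartate codons. The sequences are from the Gencode vM21 transcripts, with positions in GRCm38.
Bcl2, exon 1 of 2, chr1:106712575-106712601, minus strand: CTCcgccgggctGGGGATgacttctct
Mcl1, exon 1 of 3, chr3:95659436-95659462, plus strand: CTGcggcgcgtgGGCGACggcgtgcag
Bcl2l11, exon 3 of 4, chr2:128147150-128147176, plus strand: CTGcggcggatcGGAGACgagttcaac
Bax, exon 3 of 6, chr7:45465997-45466023, minus strand: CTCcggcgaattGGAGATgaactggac

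Library totals ran from 26612431 to 41059082 estimated counts. Zbtb38 itself was at 161.8 and 151.8 CPM (reads of the gene relative to the library total, after scaling by the trimmed mean of M values) in WT, 117.4 and 105.8 in HET, and between 18.6 and 50.3 in KO, so no KO library overlapped a control. In TPM, which also corrects for transcript length, KO 2 at 46.1 came close to HET at 49.6 in both libraries, and the other 5 KO libraries were at 17.5 to 23.7. Only the terminal exon of Zbtb38, which holds all of its protein-coding sequence, was floxed. The paper reports that transcripts within this exon were completely lost in KO, and shows a representative trace per genotype. The levels here are totals per gene and do not separate that exon from the others. The Zbtb38 log2 fold change in WT and HET over KO was 2.08 ± 0.232 (SE; edgeR quasi-likelihood test, adjusted p = 0.0104). In WT over KO 0 genes had an adjusted p under 0.05 in this test, so Zbtb38 itself did not pass that threshold there. All 8 germinal center B cell markers were above 1 CPM in every library, and they summed to 3079 and 2820 CPM in WT, 3875 and 3894 in HET, and 2271 to 4250 in KO. Markers of T cells summed to 177.6 to 256.2 CPM over the 10 libraries, of which Lck made up 126.4 to 220.1, markers of plasma cells to 1600 to 2378 and of erythroid cells to 35.5 to 96.5. KO 6 stood apart: across genes, its correlations with the remaining libraries had a median of 0.93, against medians of 0.955 to 0.976 for those. Fold changes of the 10 genes in the text that leaving out KO 6 moved by more than 1.5 times are therefore given without it as well.

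The 10 genes fell into a high and a low tier. In TPM, a unit in which each library has the same total and which corrects for transcript length and so permits genes to be compared, Mcl1 was highest with a mean of 244.7 ± 37.0 (SD, n = 10), followed by Bax at 221.4 ± 17.8, Bid at 171.0 ± 16.4 and Bcl2a1b at 153.8 ± 23.8. The next gene, Bcl2l1, which encodes BCL-XL, averaged 14.7 ± 3.39 TPM, and Bcl2a1b lay above it in 10 of 10 libraries. Bcl2l11, which encodes BIM, was at 14.1 ± 5.29 TPM, Pmaip1, which encodes NOXA, at 7.97 ± 2.52, Bcl2 at 6.09 ± 3.25, Bbc3, which encodes PUMA, at 5.64 ± 0.803, and Bak1 at 1.64 ± 0.356. Several neighbours in this order were not separated: Bcl2l1 exceeded Bcl2l11 in 6 of 10 libraries, Pmaip1 exceeded Bcl2 in 6 of 10, and Bcl2 exceeded Bbc3 in 4 of 10. Mcl1 exceeded Bax in 8 of 10 libraries. Of the 2 effectors, Bax was thus in the high tier and Bak1 the lowest of the 10 genes.

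**Figure D1:**
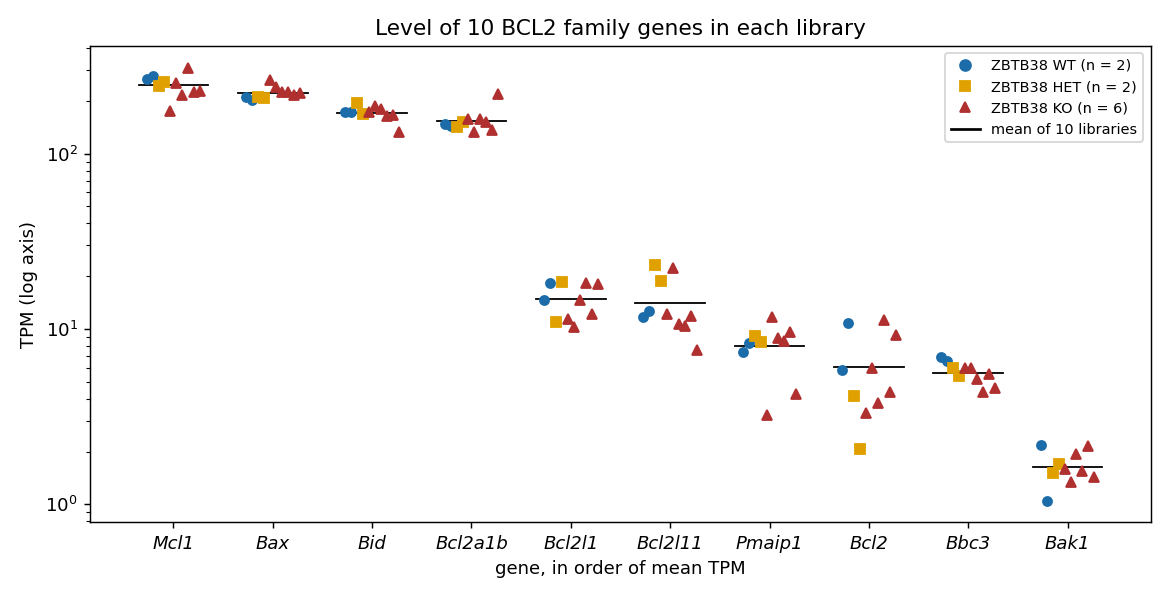
TPM of the 10 BCL2 family genes on a log axis, 1 point per library, with the mean of the 10 libraries as a line. Mcl1, Bax, Bid and Bcl2a1b lie between 132.1 and 309.0 TPM in all libraries, and no other gene of the set exceeds 23.1.

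No gene of the set passed the test in any comparison. In WT over KO, 0 of 10 genes had an adjusted p under 0.1 in edgeR's quasi-likelihood test, beside 0.00704% of all genes tested, and 0 of 10 had an unadjusted p under 0.05, beside 2.19%. In WT and HET over KO, 0 of 10 passed, beside 0.00749%, and 1 of 10, Bax, had an unadjusted p under 0.05, beside 6.30%. HET over KO and WT over HET each gave 0 of 10, beside 0.00697% of genes, and 0 of 10 at an unadjusted p under 0.05, beside 10.2% and 6.42%. DESeq2 also called 0 of the 10 genes in each comparison, beside 0.0354% of all genes with an adjusted p in WT over KO, 0.143% in WT and HET over KO, 3.54% in HET over KO and 0.928% in WT over HET. These comparisons share libraries, so their values are not independent of each other.

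The intervals show which sizes of change remained possible. Mcl1 was the most narrowly bounded, with a log2 fold change of 0.10 in WT over KO and a 95% confidence interval of -0.19 to 0.38. For Bid the interval was -0.45 to 0.26, whereas for Bcl2 it was -0.65 to 1.13 and for Bak1 -1.41 to 1.03. The interval for Bcl2 therefore still held a log2 change of 1 upward, and that for Bak1 a log2 change of 1 in either direction. The median log2 fold change of the 10 genes was -0.08 in WT over KO, against -0.01 over all genes tested, and -0.01 in WT and HET over KO, against -0.02. The replicate libraries are taken to be separate mice, since the study counts them so.

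**Figure D2:**
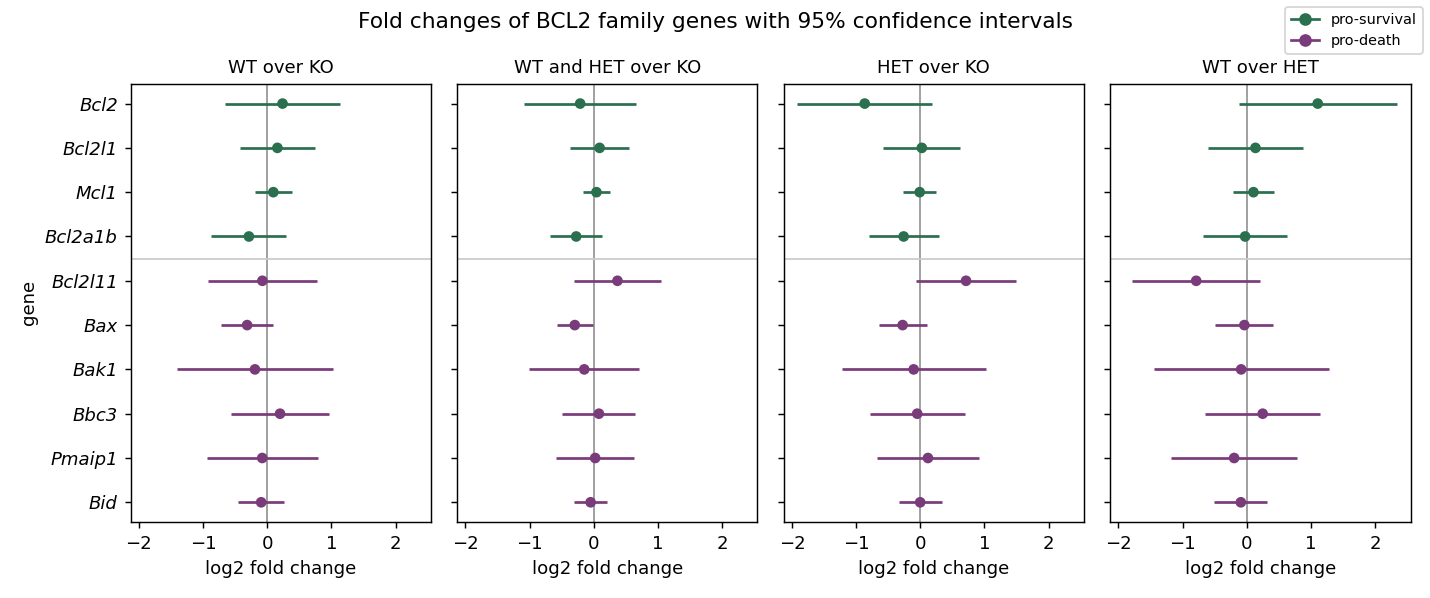
Log2 fold change of each BCL2 family gene (point) with its 95% confidence interval (line) in 4 comparisons, by edgeR. Only the interval of Bax in WT and HET over KO, -0.57 to -0.02, leaves out 0, and it rests on an unadjusted p.

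Mcl1 (chr3:95658788-95663176 in GRCm38, plus strand), the gene of a short-lived pro-survival protein, varied least in CPM. It was at 622.7 and 633.2 CPM in WT, 578.2 and 590.3 in HET, and between 531.7 and 682.8 in KO, with a KO median of 563.6. Both WT libraries lay inside the KO range and above both HET libraries. The coefficient of variation over the 6 KO libraries was 9.45% in CPM, the smallest of the 10 genes. In TPM it was 19.1%, above Bax at 7.36%, Bid at 11.3%, Bbc3 at 12.8% and Bak1 at 18.4%. The difference in WT over HET was 0.10 ± 0.145 on the log2 scale (edgeR, adjusted p = 0.980).

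Bcl2 (chr1:106538178-106714274, minus strand), the founding member of the family, varied most, with a coefficient of variation of 46.3% over the 10 libraries. Its level was 25.0 and 32.8 CPM in WT, 19.5 and 7.31 in HET, and 14.6 to 39.8 in KO, with a KO median of 18.7. The 6 KO libraries were not evenly spread: KO 4 at 38.6 and KO 6 at 39.8 lay above both WT libraries, and the other 4, between 14.6 and 19.0, lay below both. In WT over KO its log2 fold change was 0.24 ± 0.403 (edgeR, adjusted p = 0.999). It was 0.43 without KO 6, 0.42 without WT 1 or without KO 4, 0.15 without KO 5, 0.13 without KO 3 and 0.03 without WT 2. In WT over HET, where the 2 groups did not overlap, it was 1.11 ± 0.564 with an interval of -0.13 to 2.34 (edgeR, adjusted p = 0.797). It ranged from 0.56 without HET 2 to 1.98 without HET 1, so the library HET 2 at 7.31 CPM, or 202 counts, decided much of its size.

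The libraries with high Bcl2 were also high in naive B cell markers and low in germinal center B cell markers. The summed level of 7 such markers (Ccr7, Klf2, S1pr1, Fcer2a, Cr2, Cd55 and Foxo1) was 1290 and 1365 CPM in WT, 1049 and 1063 in HET, and 881 to 1661 in KO, where KO 6 at 1661 and KO 4 at 1372 were the highest. KO 6, KO 4, WT 2 and WT 1, in this order, were the 4 highest libraries both for Bcl2 and for this sum. The same 4 libraries, in the same order from the lowest, were the 4 lowest for the sum of the 8 germinal center B cell markers, at 2271, 2643, 2820 and 3079 CPM, and the other 6 were at 3183 to 4250. All 7 markers were above 1 CPM in every library, and Foxo1 also stands on the list of BCL2 family regulators. The 7 myeloid markers summed to 516.6 and 424.4 CPM in WT, 79.6 and 74.7 in HET and 68.0 to 700.1 in KO, with KO 4 the highest and KO 6 at 193.7. In WT over HET, where Bcl2 did not overlap, 0 markers of any of these lists were called by edgeR. At an unadjusted p under 0.05, beside 6.42% of all genes, 6 of 7 myeloid, 5 of 8 T cell, 3 of 7 naive B cell, 3 of 6 erythroid and 1 of 7 plasma cell markers were higher in WT, and 0 of 8 germinal center B cell markers had such a p. The median log2 fold changes of these lists in WT over HET were 2.06 for myeloid, 1.91 for T cell, 1.20 for naive B cell, 1.18 for erythroid, 0.55 for plasma cell and -0.31 for germinal center B cell markers, against 0.01 over all genes. The part of any of them in the level of Bcl2 was not tested, and in such bulk libraries fewer cells of a type and less RNA per cell cannot be told apart.

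**Figure D3:**
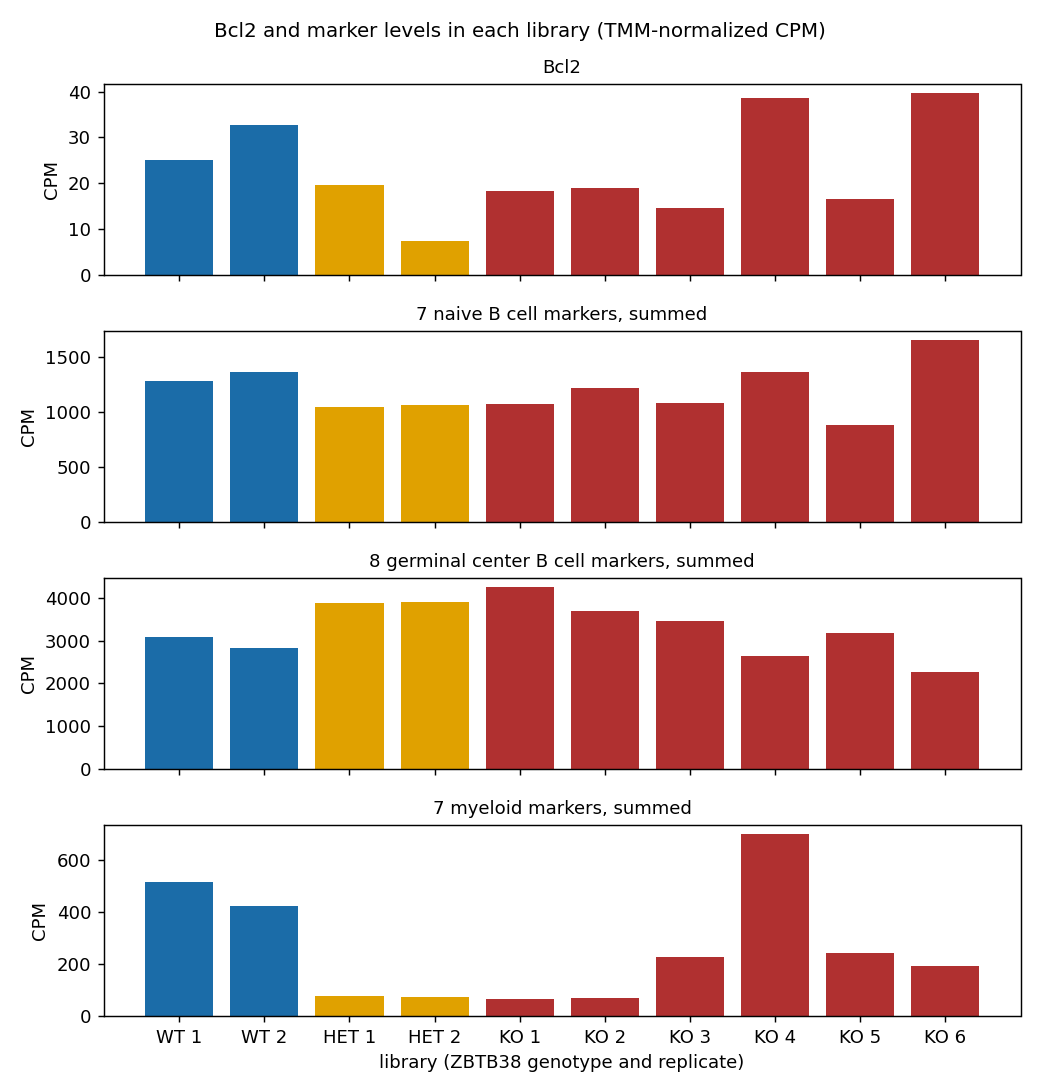
Bcl2, the sum of 7 naive B cell markers, the sum of 8 germinal center B cell markers and the sum of 7 myeloid markers in each library, in CPM (bars start at 0, colored by genotype). KO 4 and KO 6 are the highest of the KO libraries for Bcl2 and the naive B cell markers and the lowest for the germinal center B cell markers, and HET 2 is the lowest for Bcl2 at 7.31 CPM.

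Bcl2l1, the gene of the pro-survival protein BCL-XL, overlapped between all groups. It was at 22.3 and 25.3 CPM in WT, 16.8 and 26.6 in HET, and 14.1 to 28.4 in KO, with a KO median of 20.6. The 2 HET libraries lay further apart than the 2 WT libraries did. Bcl2l1 had a log2 fold change of 0.16 ± 0.264 in WT over KO (edgeR, adjusted p = 0.999). It was 0.26 without KO 6, 0.25 without WT 1, and 0.07 without KO 2 or without WT 2.

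Bcl2a1b, 1 of the mouse copies of the pro-survival gene A1, was steady in the controls and spread in KO. It was at 64.5 and 59.6 CPM in WT, 61.5 and 64.9 in HET, and 54.3 to 113.0 in KO, with a KO median of 68.1. KO 6 at 113.0 and KO 1 at 88.8 were the highest, and KO 2 was below every control. The log2 fold change in WT and HET over KO was -0.27 ± 0.187 (edgeR, adjusted p = 0.754), and -0.12 without KO 6.

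The A1 copies are much alike in their coding bases, and how well their reads were told apart was not measured. Bcl2a1b lies at chr9:89199209-89207827 in GRCm38, 7.47 Mb from Zbtb38. Over 519 coding bases it differed from Bcl2a1a at 11 and from Bcl2a1d at 6, and it shared an unbroken run of 217 identical bases with each. The first 30 coding bases hold 5 of the positions at which the 3 copies differ, marked by capitals.
Bcl2a1a, exon 1 of 2, chr9:88957051-88957080, plus strand: atgGctgagtCTgagCtcatgCatatccac
Bcl2a1b, exon 1 of 2, chr9:89199360-89199389, plus strand: atgGctgagtACgagTtcatgTatatccac
Bcl2a1d, exon 1 of 2, chr9:88731690-88731719, minus strand: atgTctgagtACgagTtcatgTatatccac
In this window Bcl2a1b and Bcl2a1d are told apart by a single base. Bcl2a1d was estimated at 46.5 and 40.9 CPM in WT, 27.6 and 33.3 in HET and 29.1 to 65.9 in KO, Bcl2a1a at 1.49 to 4.26 CPM over all libraries, and Bcl2a1c at 0 in 8 of 10. Summed over the copies, A1 was at 113.7 and 102.0 CPM in WT, 91.5 and 100.3 in HET, and 87.6 to 170.3 in KO. With the copies summed, the log2 fold change in WT over HET was 0.17, against -0.03 for Bcl2a1b alone (-0.01 without KO 6), and neither passed the test.

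Among the pro-death genes, Bcl2l11 (chr2:128126038-128162547, plus strand) had the largest fold changes that involved HET. BIM is a BH3-only protein that binds every pro-survival member. Its gene was at 33.5 and 33.9 CPM in WT, 66.9 and 49.4 in HET, and 14.8 to 58.2 in KO, with a KO median of 33.5. Both HET libraries lay above both WT libraries, and only KO 2 at 58.2 reached the HET range. The log2 fold change was 0.71 ± 0.356 in HET over KO, with an interval of -0.07 to 1.49 (edgeR, adjusted p = 0.516), and -0.79 ± 0.456 in WT over HET, with an interval of -1.79 to 0.21 (edgeR, adjusted p = 0.817). Without KO 6 the value in HET over KO was 0.55 (edgeR, adjusted p = 0.430). In WT over HET it was called in 1 alternative, the edgeR fit of the 4 WT and HET libraries alone (-0.78, adjusted p = 0.0952), in which 523 genes were called in all. Bcl2, Mcl1 and Bbc3 were higher in both WT than in both HET libraries, 3 of 10 genes beside 24.5% of all genes tested, and Bcl2l11 and Pmaip1 were lower, 2 of 10 beside 23.5%. The 5 of 10 genes without overlap thus matched genes at large, of which 48.0% had none. In WT over KO, WT and HET over KO and HET over KO, 0 of 10 genes had groups without overlap in CPM, beside 6.58%, 1.51% and 13.9% of genes.

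**Figure D4:**
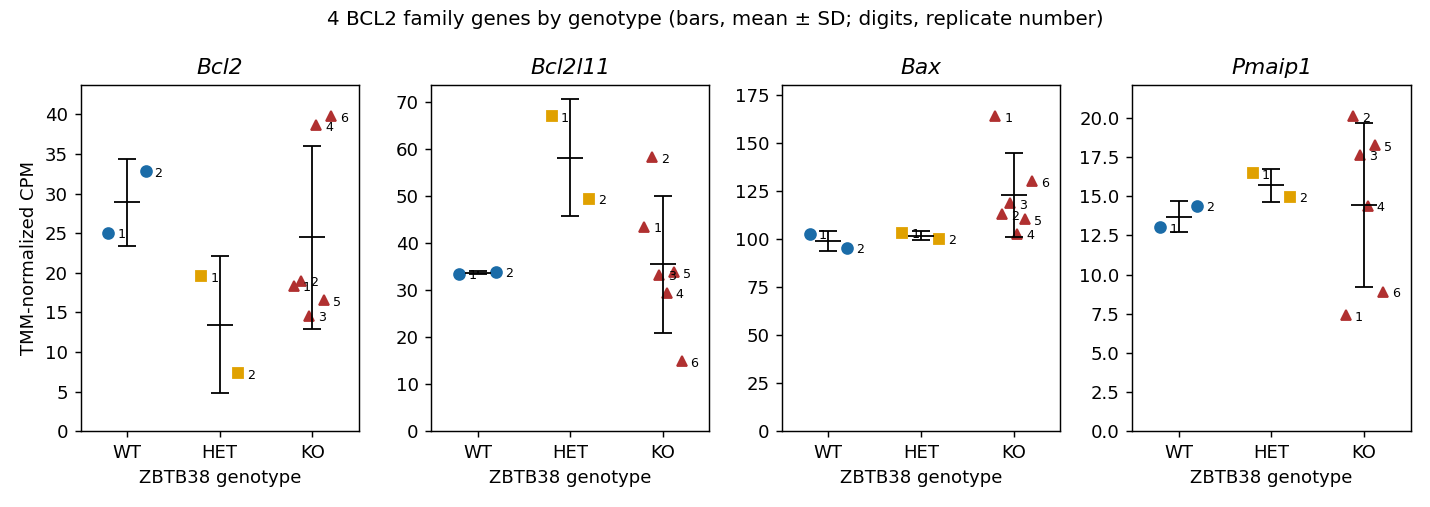
CPM of Bcl2, Bcl2l11, Bax and Pmaip1 in each library by ZBTB38 genotype, with the group mean ± SD (n = 2 WT, 2 HET, 6 KO) and the replicate number beside each point. HET 2 is lowest for Bcl2 at 7.31 CPM, both HET libraries lie above both WT libraries for Bcl2l11, KO 6 is lowest for Bcl2l11 at 14.8 CPM, and KO 1 is highest for Bax at 163.7 CPM.

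The 4 libraries highest in Bcl2l11, which were HET 1, KO 2, HET 2 and KO 1, were also the 4 lowest in summed myeloid markers, at 68.0 to 79.6 CPM against 193.7 to 700.1 in the other libraries. They were also the 4 highest in summed germinal center B cell markers, at 3684 to 4250 CPM against 2271 to 3462 in the others. The part of either list in the level of Bcl2l11 was not tested.

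The transcripts of Bcl2l11 were not the same in every library. The longest coding sequence, of 591 bases, took 62.0% of the gene's counts summed over the 10 libraries and the next, of 423 bases, 23.4%. Both hold the BH3 stretch printed above, as do 2 transcripts with coding sequences of 333 bases. The remaining transcript, ENSMUST00000089634.11, has a coding sequence of 276 bases that lacks the stretch. Transcripts with the stretch summed to 11.5 and 9.17 TPM in WT, 20.9 and 15.7 in HET, and 1.52 to 17.4 in KO, with a KO median of 8.69. KO 6 was the lowest of the 10 libraries at 1.52 TPM, and the next lowest, KO 5, was at 8.65. Of the gene's TPM, transcripts with the stretch made up 72.5% to 98.3% in the 9 other libraries and 20.0% in KO 6. There the 276-base form was at 6.07 TPM and took 73.3% of the gene's counts. These values are Salmon's division of reads among overlapping transcripts, whose error is not given in the files used here, and this difference was seen after the values were known and was not tested.

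**Figure D5:**
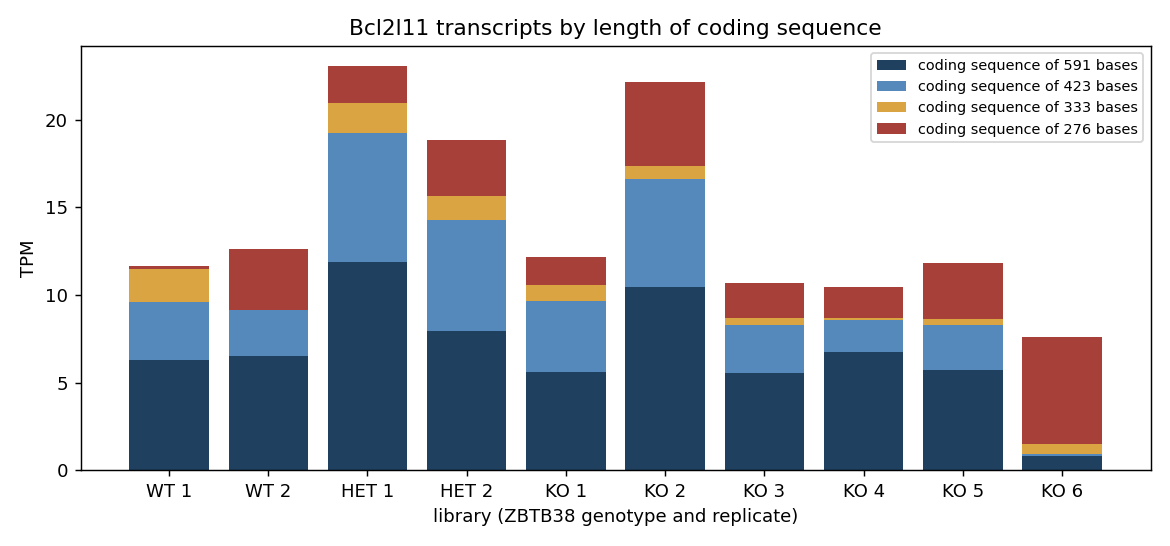
TPM of Bcl2l11 in each library, divided by the length of the transcript's coding sequence (stacked bars from 0). The 276-base form, which lacks the BH3 stretch, is at 6.07 TPM in KO 6, where the other forms sum to 1.52, and at 0.193 to 4.81 TPM elsewhere.

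Bax (chr7:45461697-45466898, minus strand), the effector that moves to mitochondria on activation, was the member nearest to a difference between controls and KO. Its level was 102.8 and 95.3 CPM in WT, 103.2 and 100.1 in HET, and 102.7 to 163.7 in KO, with a KO median of 115.7. The 4 controls were tightly grouped, with a coefficient of variation of 3.63%, and 5 of 6 KO libraries lay above all of them, the exception being KO 4 at 102.7. In WT and HET over KO its log2 fold change was -0.29 ± 0.128, with an interval of -0.57 to -0.02 (edgeR, unadjusted p = 0.0393, adjusted p = 0.744). Without KO 1, the highest library, it was -0.19, so that library moved it by more than 1.5 times.

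On the TPM scale the Bax groups separated. Bax was at 208.7 and 202.6 TPM in WT, 208.7 and 208.2 in HET, and 214.4 to 261.6 in KO, so each KO library was above each control. It was the only 1 of the 10 genes with no overlap in TPM in WT and HET over KO, beside 1.58% of all genes tested. The difference was nonetheless small and did not pass the test, with -0.15 ± 0.0759 by limma on log2(TPM + 1) (adjusted p = 0.686). Most Bax counts, 75.9%, came from the transcript with a coding sequence of 579 bases, and this share ran from 71.3% to 83.0% over the libraries.

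Bak1, the other effector, was measured from few reads. It was at 3.17 and 1.42 CPM in WT, 2.42 and 2.46 in HET, and 1.73 to 3.37 in KO, with a KO median of 2.64. The groups overlapped, and counts were as low as 41 in WT 2. For WT over KO its log2 fold change was -0.19 ± 0.550 (edgeR, adjusted p = 0.999), and its sign turned to 0.27 without WT 2.

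Of the genes for BH3-only proteins induced by p53, Bbc3 was even and Pmaip1 was not. Bbc3 was at 7.54 and 7.22 CPM in WT, 7.08 and 5.36 in HET, and 4.66 to 8.57 in KO, with a KO median of 6.48 and overlapping ranges. Its log2 fold change in WT over KO was 0.20 ± 0.348 (edgeR, adjusted p = 0.999), and ran from 0.12 without KO 4 to 0.30 without KO 1. Pmaip1, whose product targets MCL1 and A1, was at 13.0 and 14.4 CPM in WT, 16.5 and 15.0 in HET, and 7.40 to 20.1 in KO, with a KO median of 16.0. KO 1 at 7.40 and KO 6 at 8.89 lay below all 4 controls, while KO 2, KO 3 and KO 5 lay above all 4, so the KO range enclosed that of the controls on both sides. The log2 fold change in WT and HET over KO was 0.02 ± 0.282 (edgeR, adjusted p = 0.991). It was -0.08 without KO 6 and ran from -0.11 without KO 1 to 0.14 without KO 2.

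Bid, which is cut by caspase 8 to link death receptors to mitochondria, was high and even. It was at 246.1 and 241.9 CPM in WT, 280.3 and 239.9 in HET, and 221.0 to 322.4 in KO, with a KO median of 254.5. The groups overlapped, and the log2 fold change in WT and HET over KO was -0.05 ± 0.117 (edgeR, adjusted p = 0.942). It was -0.08 without KO 6 and ran from -0.10 without HET 1 to 0.02 without KO 1. On the TPM scale KO 6 was the lowest library at 132.8, and the other 9 were between 163.0 and 193.9.

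Pro-survival and pro-death transcripts were near balance. The 4 pro-survival genes made up 51.6% and 52.7% of the members' summed TPM in WT, 47.6% and 51.0% in HET, and 43.2% to 55.9% in KO. KO 6 at 55.9% and KO 4 at 54.3% were above both WT libraries, and the other 4 KO libraries were below both. The means were 52.1% ± 0.769 (SD, n = 2) in WT, 49.3% ± 2.43 (n = 2) in HET and 49.2% ± 4.90 (n = 6) in KO, or 47.8% ± 4.07 without KO 6. Mcl1 made up 48.2% to 63.1% of the pro-survival TPM and Bcl2 0.482% to 2.42%. These shares weight transcripts and not proteins.

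The other BCL2 family genes gave the same count of calls. Of 16 on the list, 14 were tested in WT over KO and 12 in WT and HET over KO, and 0 passed edgeR's test in any comparison. In WT and HET over KO, 2 of 12 had an unadjusted p under 0.05, beside 6.30% of all genes, both higher in controls: Bmf and Bcl2l13. In WT over KO 1 of 14, Bmf, had such a p, beside 2.19%. In HET over KO 2 of 14 did, beside 10.2%. Both were lower in HET: the copy Bcl2a1d, and Bcl2l2, which averaged under 1 CPM in each group. In WT over HET 0 of 14 did, beside 6.42%. The median log2 fold change of the list in WT and HET over KO was -0.20, against -0.02 over all genes. Bmf, which encodes a BH3-only protein, was at 24.4 and 22.7 CPM in WT, 14.1 and 19.4 in HET, and 7.44 to 20.4 in KO. Both WT libraries were above all KO libraries, as for 3.91% of all genes tested, and the HET libraries were within the KO range. The Bmf log2 fold change was 0.66 ± 0.266 in WT and HET over KO (edgeR, adjusted p = 0.744) and 0.88 ± 0.328 in WT over KO (edgeR, adjusted p = 0.999). Bcl2l13 was at 78.6 ± 11.6 CPM in WT, 81.1 ± 1.86 in HET and 62.8 ± 12.6 in KO. Bad, a BH3-only gene regulated by phosphorylation of its product, averaged 31.4, 36.1 and 40.2 CPM in WT, HET and KO. Its WT libraries, at 31.1 and 31.6 CPM, were below all KO libraries, at 32.8 to 51.0, as for 2.68% of all genes tested. Bik was at or below 2.28 CPM in all libraries. The highest of the list in TPM was Bcl2a1d at 86.7.

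The list of apoptosome and mitochondrial execution genes held 14 genes, and 0 were called. All 14 were above 1 CPM in every library. In WT and HET over KO, 0 of 14 had an unadjusted p under 0.05, beside 6.30% of all genes, and the median log2 fold change was -0.04, against -0.02. In WT over KO 2 of 14 had such a p, beside 2.19%: Birc3 was higher in WT at 0.31 and Xiap lower at -0.60, both genes of inhibitor of apoptosis proteins. In HET over KO 4 of 14 did, beside 10.2%: Casp9, Birc2 and Apaf1, the scaffold of the apoptosome, were higher in HET, and Endog was lower. In WT over HET 2 of 14 did, beside 6.42%, and both were lower in WT: Xiap at -0.91 and Apaf1 at -0.87. Casp9, the initiator caspase of the apoptosome, was at 70.1 and 79.6 CPM in WT, 94.6 and 98.1 in HET and 60.2 to 77.6 in KO. Casp9 in HET was thus above all KO libraries, as were 8.12% of all genes tested. Its log2 fold change in HET over KO was 0.43 ± 0.139 (edgeR, adjusted p = 0.370). Cycs, the gene of cytochrome c, averaged 131.3 CPM in WT, 170.5 in HET and 187.2 in KO, and Htra2, a mitochondrial protease, 71.6, 68.9 and 79.4. Both WT libraries were below all KO libraries for Cycs, as for 2.68% of all genes tested, and also for Xiap. For Birc3 both WT libraries were above all KO libraries, as for 3.91%. Both HET libraries were below all KO libraries for Htra2, as for 5.77%. Birc2, which encodes an inhibitor of apoptosis protein, averaged 99.0, 130.3 and 92.8 CPM. Vdac2, a channel of the outer membrane that holds BAK, was the highest of the list at 235.8 TPM.

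Of 12 regulators of BCL2 family genes and proteins, 0 were called and 0 had an unadjusted p under 0.05 in any comparison. The 4 with the smallest p in WT and HET over KO were Usp9x, Huwe1, Ddit3 and Fbxw7. Usp9x and Huwe1, a deubiquitinase and a ubiquitin ligase of MCL1, had log2 fold changes of 0.57 ± 0.287 and 0.35 ± 0.192 (edgeR, adjusted p = 0.744 for both). Fbxw7, of another ligase that targets MCL1, was at 0.19 ± 0.141, and Ddit3, a stress factor, at -0.39 ± 0.279. Trp53, the gene of p53, was the highest of the list at 168.9 TPM and differed by -0.10 ± 0.137.

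For 4 members the genes with the most similar pattern over the 10 libraries were sought among 14354 genes, by the root mean square difference of log2 CPM after each gene was centred on its mean. For Bcl2 these were Il5ra at 0.20, Cacna1i at 0.24 and Atp2a1 at 0.27, where Bcl2 itself varied by 0.66 about its mean. For Bcl2l11, which varied by 0.56, they were Ggta1 at 0.17, Ppp1r21 at 0.17 and Invs at 0.19. For Mcl1, which varied by 0.10, they were Gtf3c2, Mob3a and Inpp5k, at 0.06 to 0.07, and for Bbc3, which varied by 0.21, Ubl7, Ttc1 and Rab35, at 0.10 to 0.12. The values are a description of 10 libraries.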

How the data were processed

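The 10 libraries were made by the authors with SMART-Seq v4 and sequenced as paired-end reads, and transcripts were quantified with Salmon 0.9.1 against Gencode vM17. The deposited values per transcript are estimated counts, not normalized, TPM, which corrects for transcript length and sums to the same total in every library, and each transcript's effective length in bases. The authors tested genes with DESeq2, and their results were not used here.

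Here, estimated counts were summed per gene and rounded, and TPM was summed per gene. CPM was scaled by TMM. Genes were filtered with filterByExpr and tested with edgeR 4.0.16 (quasi-likelihood, Benjamini-Hochberg over all genes tested, threshold 0.1), in WT over KO (2 and 6 libraries), WT and HET over KO (4 and 6), and HET over KO and WT over HET (10 libraries, 1 term per genotype). Alternatives were DESeq2 1.42.0 and its size factors, limma 3.58.1 on log2(TPM + 1) or log2(TPM + 0.1), other filters, length-scaled counts, no immunoglobulin genes, a threshold of 0.05, a replicate block, other libraries in the fit, and each library left out. The 10 genes and all gene lists were chosen with earlier results of these data known. A gene each of the germinal center and naive B cell marker lists is not reported here and is in neither count or sum. Named genes were the members, Zbtb38, the A1 copies, and of each pathway list any gene called, otherwise the 4 with the smallest p in WT and HET over KO, and the highest in TPM, plus, for 4 members, the 3 most similar genes. Bmf, Bad, Cycs, Xiap and Birc3 in WT over KO and Casp9 and Htra2 in HET over KO were described for their group ranges after their values were seen. Bcl2l2, Xiap, Birc3, Apaf1 and Endog were also named after their values were seen, for an unadjusted p. Positions come from Gencode vM21, to which 22349 of 22380 genes matched. A count of 0 allows up to 3 counts in a library, and this limit and all intervals cover neither PCR duplicates nor Salmon's division of reads between copies.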

Additional observations from a re-analysis of the deposited data

Results flagged for a closer look

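One value of the 20 group and gene combinations checked for a library far from its group was marked: among the 4 WT and HET libraries, Bid in HET 1 was at 280.3 CPM, and its gap to the next library was 0.847 of the group's range, above the critical value of 0.829. About 1 in 20 such checks is marked by chance.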

How the results depend on the processing

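With 2 WT, 2 HET and 6 KO libraries, intervals were wide for Bcl2, Bcl2l11 and Bak1, at 41 to 132 counts for Bak1, and a miss of the threshold does not show equal levels. The A1 copies and the Bcl2l11 transcripts rest on Salmon's division of shared reads. Of 824 log2 fold changes of the 10 genes under alternatives, 763 kept their sign and side of the threshold, 1 passed it and 60 changed sign, all of the last without a call; 263 changed sign or moved by more than 1.5 times. The cause was not tested.

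The 1 that passed was Bcl2l11 in WT over HET, at -0.78 when only the 4 libraries of these groups were fitted (523 genes and 1 of the 10 called). The smallest adjusted p over all alternatives was its 0.0952. The pro-survival share in WT was 53.6% with the other family genes added.

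Same-numbered libraries showed little correlation of their deviations from the group mean (r from -0.016 to 0.123). This check covered only replicates 1 and 2. With 2 WT and 2 HET libraries, whose deviations mirror each other, it cannot decide whether the numbers pair libraries. With a replicate block, genes called numbered 6 in WT over KO, 0 in WT and HET over KO, 4 in HET over KO and 66 in WT over HET. Under the block the sign changed for Pmaip1 in WT over KO (0.16), Bcl2 (0.18), Bcl2l11 (-0.15), Bak1 (0.066) and Bbc3 (-0.028) in WT and HET over KO, and Mcl1 (0.090) and Bak1 (0.17) in HET over KO, and none of the 10 genes was called. The block also took Bcl2l11 in HET over KO from 0.71 to 0.195 and Bcl2 in WT over KO from 0.24 to 0.62.

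Over all genes, 1 was called in each comparison. DESeq2 called 5 in WT over KO, 18 in WT and HET over KO, 458 in HET over KO and 125 in WT over HET. Limma on log2(TPM + 1) called 0 in WT over KO and 0 in WT and HET over KO, and on log2(TPM + 0.1) it called 3 in WT over KO, 0 in WT and HET over KO, 6 in HET over KO and 5 in WT over HET. Length-scaled counts gave 0 in WT over KO and 0 in WT and HET over KO, a threshold of 0.05 gave 0 in WT over KO, and all 10 libraries in the fit gave 2. In HET over KO, no filter gave 2, at least 10 counts in every library 0 and only the 2 groups' libraries 0, and in WT over HET at least 10 counts gave 0.

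On log2(TPM + 1) and log2(TPM + 0.1), the signs changed in WT over KO for Bcl2l11 (0.033 and 0.041), Pmaip1 (0.12 and 0.15) and Bid (0.060 and 0.061), in WT and HET over KO for Bid (0.090 and 0.090), and in HET over KO for Mcl1 (0.11 and 0.11), Bbc3 (0.10 and 0.12) and Bid (0.12 and 0.12). Bid in HET over KO was 0.0025 by DESeq2 and with its size factors. Length-scaled counts gave -0.056 for Bcl2l1 and 0.0089 for Bid in HET over KO and 0.0079 for Bak1 in WT over HET. Bcl2a1b in WT over HET was 0.0029 with at least 10 counts in every library and 0.17 with the copies summed.

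With each library left out in turn, none of the 10 genes was called. Genes called ran from 0 to 2 in WT over KO (2 without KO 6, 0 without WT 1, WT 2, KO 1, KO 3, KO 4 or KO 5) and from 1 to 2 in WT and HET over KO (2 without WT 1). In HET over KO they ran from 0 to 5 (5 without KO 2, 3 without KO 6, 0 without WT 1, WT 2, HET 1, HET 2, KO 3 or KO 4), and in WT over HET from 0 to 16 (16 without KO 6, 0 without WT 1, WT 2, HET 1, HET 2, KO 2, KO 3 or KO 4). Values that changed sign in WT over KO were Bcl2l11 (-0.23 to 0.12), Bak1 (-0.89 to 0.27) and Pmaip1 (-0.21 to 0.041). In WT and HET over KO they were Bcl2 (-0.50 to 0.074), Bcl2l1 (-0.00072 to 0.21), Bak1 (-0.32 to 0.033), Pmaip1 (-0.11 to 0.14) and Bid (-0.10 to 0.024). In HET over KO they were Bcl2l1 (-0.34 to 0.32), Mcl1 (-0.050 to 0.039), Bbc3 (-0.26 to 0.14), Pmaip1 (-0.029 to 0.24) and Bid (-0.11 to 0.11). In WT over HET they were Bcl2l1 (-0.16 to 0.50), Bcl2a1b (-0.085 to 0.030), Bax (-0.095 to 0.016), Bak1 (-0.78 to 0.38) and Bid (-0.20 to 0.022).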
